A study of Mus musculus with 6 samples.

Results

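The CTdel form of Notch1 was set against the ICN form in BaF3 cells, gene by gene, as the difference in log2(FPKM + 1) between the CTdel and the ICN library of the same deposited table. FPKM count fragments per length of transcript and per size of the library. The comparison used 4 of the 6 libraries of the series, 2 for each form, and 16799 genes were listed in both tables. Of these, 11050 reached an FPKM of at least 1 in at least 2 of the 6 libraries and were tested with limma, with Benjamini-Hochberg adjustment over all 11050. Both forms were delivered by nucleofection on pmax-Clover plasmids, which carry the green fluorescent protein Clover: pmax-Clover-ICN in the ICN group and pmax-Clover-CTdel in the CTdel group. The con group received pmax-Clover alone and appears here as the background level. All groups were cultured in RPMI medium with 10% serum and 2 ng/mL mouse interleukin-3, and were sorted 24 h after nucleofection. The sources used here do not give the sorting gate, the change that CTdel carries or the species from which ICN was taken. Expression from a plasmid at one early time also limits both groups as a model of a stable mutation. The labels do not state that the replicates were separate cultures, and p-values thus cover the scatter of these libraries alone, which may be technical.

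Notch receptors are cut when they bind a ligand, and the freed intracellular part, ICN, moves to the nucleus. There it joins the DNA-binding protein RBPJ and Mastermind-like coactivators and switches on genes such as Hes1, Dtx1 and Myc. The tail of ICN holds a PEST region through which the ubiquitin ligase subunit Fbxw7 marks the protein for degradation, and NOTCH1 mutations in chronic lymphocytic leukaemia commonly remove that region. The series title names such mutation as its subject.

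FPKM summed to between 489693 and 507894 per library, and read depth is unknown because FPKM keep no read totals. ICN libraries had 16413 and 16946 genes above 0 and CTdel libraries had 15822 and 15599. The labels call BaF3 a pro-B line. Among 24 B-lineage genes, 17 were in both tables and 7 of these stayed under 1 FPKM in every library, including the pro-B markers Ebf1, Vpreb1 and Igll1. Igll1, a part of the surrogate light chain, reached at most 0.13 FPKM. The other 10 of the 17 were tested and summed to 270 and 241 FPKM in con. Among these, Lyn had 39.52 and 30.64 FPKM in con and Cd79b had 3.62 and 4.32. The interleukin-3 receptor chain gene Il3ra had 30.04 and 23.72 FPKM in con, 18.99 and 35.14 in ICN and 23.80 and 23.76 in CTdel. In these bulk samples, fewer cells of a type and less RNA per cell cannot be told apart.

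Notch1 itself (Gene ID 18128, GRCm38.p6 chr2:26457902-26503822) stood well below the ICN level in both CTdel libraries. It had 0.89 and 1.72 FPKM in con, 190.02 and 888.47 in ICN, and 84.94 and 25.36 in CTdel. Both ICN libraries were above both CTdel libraries, and all 4 were far above con. ICN over CTdel came to 2.24-fold in replicate 1 and 35.0-fold in replicate 2. The mean difference, CTdel minus ICN, was −3.11 on the log2(FPKM + 1) scale (SE 0.84, 95% interval −5.18 to −1.05), with a limma p of 0.0104 and an adjusted p of 0.604. The difference did not pass. It was −4.52 without ICN replicate 1 and −4.65 without CTdel replicate 1. Each of those fits leaves a group with a single library, so no p-value is given for them. How far plasmid reads count toward these FPKM was not tested. Since the species of ICN and the change in CTdel are not given, the Notch1 fold may not be one of level alone. All differences below were measured between libraries that also differed in Notch1 FPKM, and differences in form and in level cannot be told apart.

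**Figure D1:**
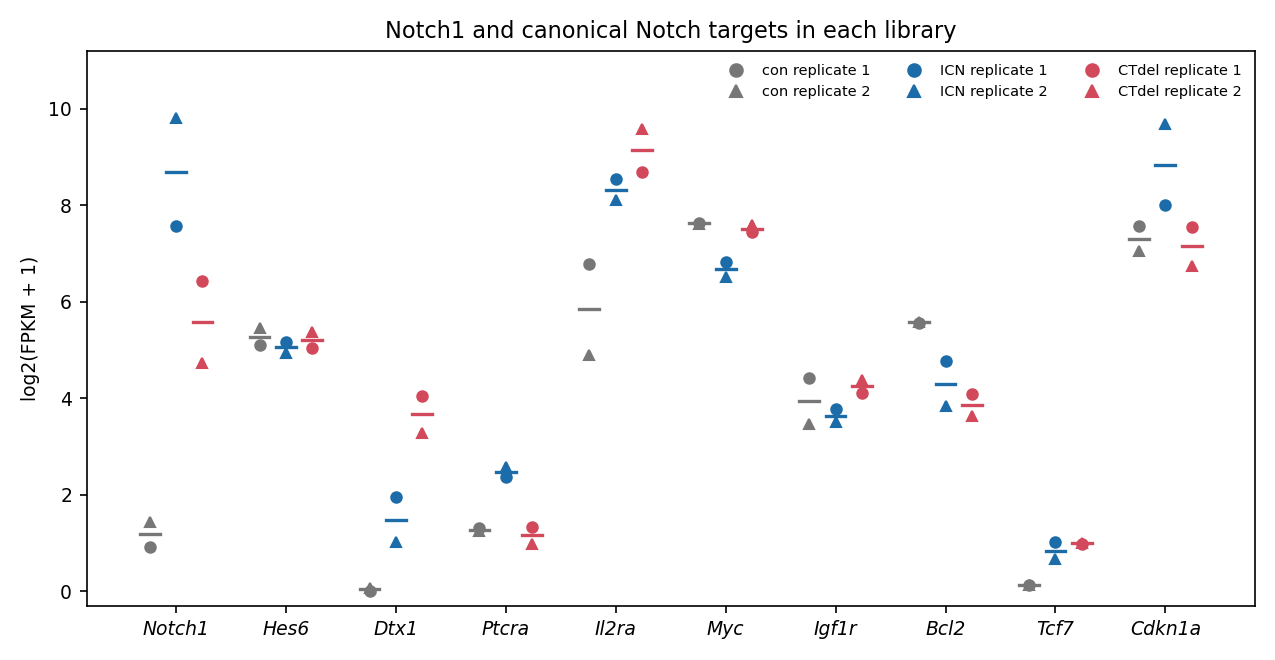
Level as log2(FPKM + 1) on the y axis of Notch1 and the 9 tested canonical Notch targets, with 1 point per library (circles replicate 1, triangles replicate 2) and a bar at the mean of each group of 2 libraries. Notch1 lies at 190.02 and 888.47 FPKM in ICN and at 84.94 and 25.36 in CTdel, while Dtx1 is higher in both CTdel libraries than in both ICN libraries.

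Across all genes, limma called 2 as different between the forms, 0.0181% of the 11050, and both fell in CTdel. No gene passed in the other direction (0.0%), although 386 genes were higher and 402 lower at an unadjusted limma p under 0.05. These counts turned on single libraries: without ICN replicate 1 the fit called 891 genes (346 higher, 3.13%, and 545 lower, 4.93%), without ICN replicate 2 it called 9, and without CTdel replicate 1 it called 7. Differences were smaller in replicate 1 than in replicate 2. In replicate 1, 143 genes were higher and 88 lower by at least 1 on the log2(FPKM + 1) scale, called 2-fold here, against 494 and 750 in replicate 2. Both tables gave a 2-fold higher value for 79 genes (0.715%) and a 2-fold lower value for 41 (0.371%). The sign was the same in both tables for 6890 genes (62.4%). Both CTdel libraries lay above both ICN libraries in 15.6% of genes and below them in 25.0%. A lack of overlap between the forms in a single gene is therefore common here. Over all genes the median difference stood at −0.07 (replicate 1) and −0.003 (replicate 2).

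**Figure D2:**
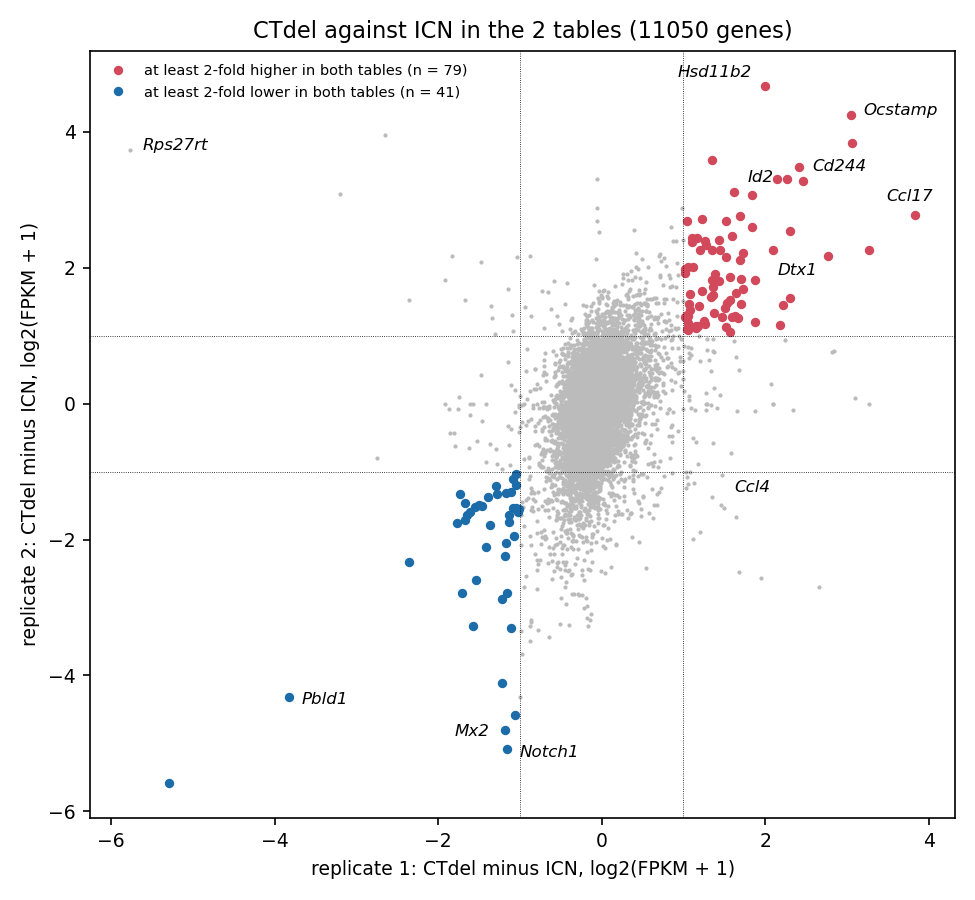
Each point is 1 of 11050 genes, with its difference in log2(FPKM + 1), CTdel minus ICN, in replicate 1 on the x axis and in replicate 2 on the y axis. Dotted lines mark 2-fold, red points the 79 genes past it upward in both tables and blue points the 41 past it downward; Pbld1 lies far to the lower left, and the cloud is taller than it is wide.

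Pbld1 was 1 of the genes that fell, and its CTdel libraries stood at the con level. It encodes a protein with a phenazine biosynthesis-like domain (Gene ID 68371, GRCm38.p6 chr10:63060625-63077964). It had 0.31 and 0.45 FPKM in con, 20.96 and 23.02 in ICN, and 0.55 and 0.20 in CTdel. The ICN libraries were high and the other 4 libraries overlapped near 0. Pbld1 fell by 4.07 (SE 0.249, 95% interval −4.69 to −3.46, limma adjusted p = 0.0237), and ICN exceeded CTdel 38.1-fold and 115.1-fold in the respective tables. CTdel minus con was −0.02 (limma adjusted p = 0.993). The call did not hold with a pseudocount of 0.1 (limma adjusted p = 0.208), with no filter on low values (0.171) or with a stricter filter (0.130).

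The 8 further genes described here as lower in CTdel did not pass. Casc4, a gene for a Golgi membrane protein, had 3.76 and 3.14 FPKM in con, 23.66 and 18.38 in ICN, and 6.56 and 1.80 in CTdel, a difference of −2.25. ICN again stood alone above the overlapping con and CTdel libraries. Bc1, a short cytoplasmic RNA that represses translation in neurons, had 419.12 and 183.45 FPKM in con, 857.67 and 602.53 in ICN, and 294.43 and 99.31 in CTdel (−2.06, limma adjusted p = 0.326). AK010878, a gene known by the name of a cDNA clone, had 69.95 and 54.40 FPKM in ICN against 31.27 and 16.88 in CTdel. The histone gene Hist2h2bb had 4.25 and 4.04 against 0.80 and 0.76. In each of these genes both ICN libraries lay above both CTdel libraries. The rest were small RNA genes near the lowest step of the scale. Snord11 had 4.10 and 4.05 FPKM in ICN and 0 in the other 4 libraries, where the lowest value above 0 at its length of 63 bases was 2.05 and 2.03 in ICN. Mir6988 (2.41 and 2.39) and Mir6976 (2.05 and 2.03) were at exactly that lowest value for their length in ICN and at 0 in CTdel. Such a value may rest on 1 read. Rny1, a Y RNA, had 2.19 and 3.61 in ICN and 0 and 0.67 in CTdel.

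Of the 10 genes of smallest p that were higher in CTdel, 9 were by group mean lowest in con, intermediate in ICN and highest in CTdel. None of the 10 passed. Cd244, a receptor of natural killer and some myeloid cells, had 0.03 and 0.07 FPKM in con, 1.50 and 0.68 in ICN, and 12.36 and 17.79 in CTdel (2.95, limma adjusted p = 0.212). Tnfrsf23, a decoy receptor for the death ligand TRAIL, had 0.32 and 0.13 in con, 6.07 and 2.71 in ICN, and 33.95 and 20.51 in CTdel (2.42, limma adjusted p = 0.212). In both genes all CTdel libraries lay above all ICN libraries, which lay above con.

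Ocstamp, a membrane protein needed for osteoclast fusion, was listed at 0 in both con libraries. It had 3.25 and 0.31 FPKM in ICN and 34.23 and 23.99 in CTdel (3.65, limma adjusted p = 0.273). Asb2, a ubiquitin ligase subunit known as a Notch-responsive gene, was also listed at 0 in con and had 1 and 0.64 in ICN and 7.86 and 15.27 in CTdel (2.73, limma adjusted p = 0.296). The groups did not overlap in either gene. Itgal, the alpha chain of LFA-1, had 22.23 and 15.30 FPKM in con, 34.05 and 21.73 in ICN, and 102.77 and 64.49 in CTdel (1.55, limma adjusted p = 0.296). Itgax, the CD11c chain of dendritic cells and macrophages, had 0.02 and 0 in con, 5.97 and 1.38 in ICN, and 32.52 and 22.52 in CTdel (2.79, limma adjusted p = 0.326). For Itgal the ICN and con ranges overlapped, while CTdel stayed apart.

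Id2, an inhibitor of E-protein transcription factors, had 25.22 and 10.57 FPKM in con, 68.03 and 18.96 in ICN, and 245.25 and 166.70 in CTdel, a difference of 2.45. Serpinb6b, a protease inhibitor, had 7.56 and 6.91 in ICN and 26.75 and 33.35 in CTdel, a difference of 1.91. Adrbk2, a kinase of G protein-coupled receptors, had 22.80 and 9.52 in ICN and 63.75 and 49.20 in CTdel (1.85, limma adjusted p = 0.326). CTdel lay above ICN without overlap in each. Snora19 had 2.66 and 2.54 FPKM in CTdel and 0 in ICN, with 2.68 and 2.49 in con. Its CTdel values were the smallest above 0 among genes of 56 bases.

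**Figure D3:**
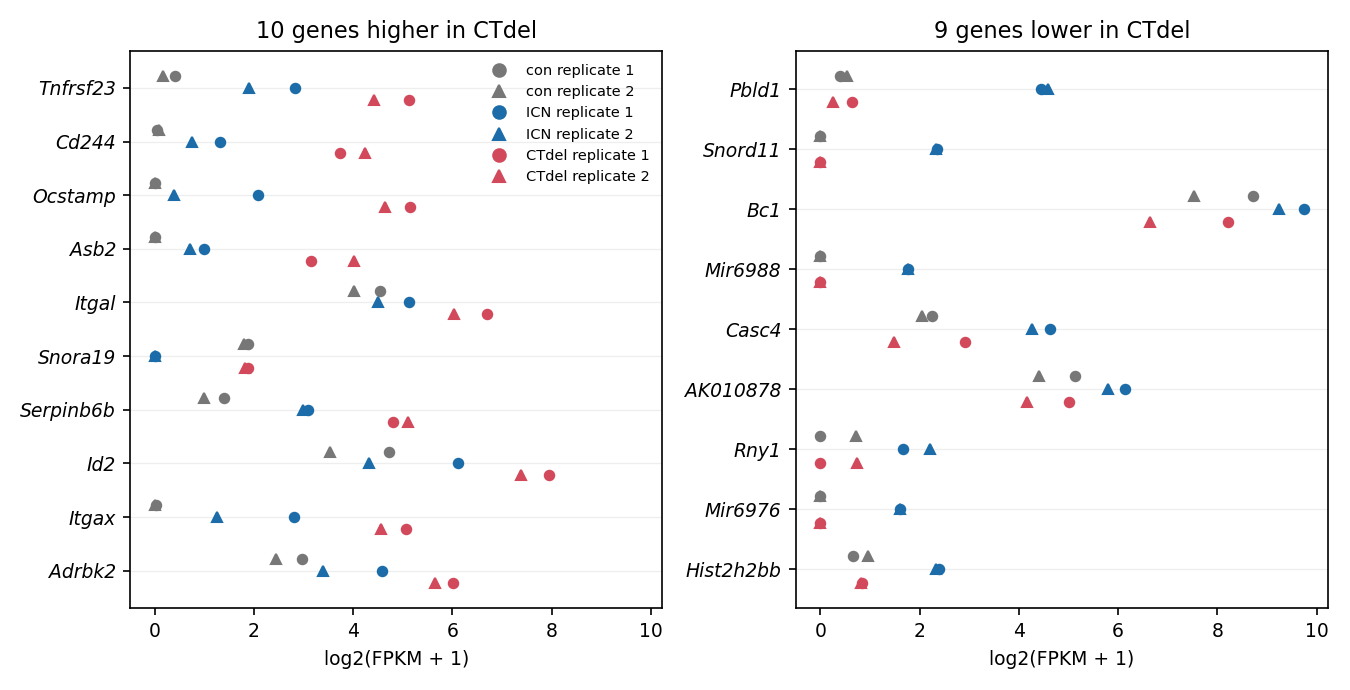
Level as log2(FPKM + 1) on the x axis of 10 leading genes higher (left) and 9 lower (right) in CTdel, with 1 point per library in con, ICN and CTdel. Pbld1 is high in the ICN libraries alone, whereas for Cd244, Tnfrsf23 and Ocstamp the con libraries are lowest and the CTdel libraries highest.

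The levels of the 79 genes 2-fold higher and the 41 genes 2-fold lower were also set beside con. Of the 79, the con mean was the lowest of the 3 group means in 66, and the median of their group means was 0.785 FPKM (con), 3.23 (ICN) and 11.7 (CTdel). Of the 41, con was lowest in 17, and the medians were 1.06 FPKM (con), 6.21 (ICN) and 1.13 (CTdel). The rule chose these genes on CTdel and ICN, and some reached the FPKM minimum in 1 form alone, such as Mir191 in CTdel and Mir6988 in ICN. A low con mean is thus partly built in, and the share of all genes with con lowest is not given. Those counts and medians are a description. The ICN and CTdel libraries did not overlap in 69 of the 79 and in 39 of the 41. The choice by these same 4 libraries largely builds that in, so these counts are also a description. Over all genes, 15.6% had both CTdel libraries above both ICN libraries and 25.0% had them below. The higher group held 64 protein-coding genes (81.0%), 7 microRNA genes and 6 small nucleolar RNA genes. The lower group held 22 protein-coding genes (53.7%) and 10 microRNA genes. Of the genes tested, 93.1% were protein coding.

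Promoters are shown for 2 of the leading higher genes because they hold the letters GTGGGAA, the core that RBPJ is known to bind. The motif was chosen with results known. Each sequence runs from 250 bases before to 50 after a RefSeq start site of GRCm38.p6, 5′ to 3′ on the gene's strand, with GTGGGAA or its reverse complement TTCCCAC in capitals. Cd244 lies at chr1:171558943-171559242 (+) and Tnfrsf23 at chr7:143685826-143686125 (−). The Dtx1 promoter, chr5:120711620-120711919 (−), is shown for comparison as that of a canonical target without a match.
Cd244: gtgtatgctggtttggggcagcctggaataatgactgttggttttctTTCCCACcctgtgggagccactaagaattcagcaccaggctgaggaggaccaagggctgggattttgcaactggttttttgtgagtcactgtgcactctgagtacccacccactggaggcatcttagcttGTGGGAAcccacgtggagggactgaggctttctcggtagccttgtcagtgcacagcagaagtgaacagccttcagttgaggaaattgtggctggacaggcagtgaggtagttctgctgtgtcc
Tnfrsf23: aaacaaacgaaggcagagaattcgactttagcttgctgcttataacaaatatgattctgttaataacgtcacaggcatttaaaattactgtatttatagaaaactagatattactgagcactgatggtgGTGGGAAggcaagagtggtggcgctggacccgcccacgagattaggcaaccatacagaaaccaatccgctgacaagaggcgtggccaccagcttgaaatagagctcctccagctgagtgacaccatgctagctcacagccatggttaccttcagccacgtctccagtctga
Dtx1: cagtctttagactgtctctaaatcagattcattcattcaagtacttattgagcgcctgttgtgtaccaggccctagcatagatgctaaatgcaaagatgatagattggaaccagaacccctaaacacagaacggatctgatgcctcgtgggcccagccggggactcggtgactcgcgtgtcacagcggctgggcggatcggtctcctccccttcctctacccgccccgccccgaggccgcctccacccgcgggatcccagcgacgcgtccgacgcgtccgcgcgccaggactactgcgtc
The Cd244 promoter held 2 matches, the forward one starting at base −73 from the start site, and that of Tnfrsf23 held 1, at −121. Promoters of Asb2, Serpinb6b, Id2 and Itgax, also among the leading higher genes, held no match. Searched on both strands, GTGGGAA was present in 9 of the 45 genes 2-fold higher in CTdel that had a promoter entry (20.0%), in 1 of the 22 genes 2-fold lower (4.55%) and in 614 of the 8735 tested genes with an entry (7.03%). Per promoter of this length the shares were 18.8% among the higher genes and 5.98% among tested genes. The 9 genes were Bcl2a1a, Bcl2a1d, Cass4, Cd244, Ffar2, Mefv, Slc6a12, Slco4a1 and Tnfrsf23, of which the near-identical Bcl2a1a and Bcl2a1d share sequence. GAGGAAGT, letters of the kind bound by the myeloid factor PU.1, was present in 8 of the 45 higher genes (17.8%), in 1 of the 22 lower genes and in 4.20% of tested genes. Bcl2a1a and Bcl2a1d are both among these 8 as well. No test was made of these shares, and a match is not a binding site.

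Canonical Notch targets showed no common direction between the forms. Of 20 listed, 16 were in both tables and 9 were tested; 0 passed in either direction, 1 was 2-fold higher in both tables and 1 was 2-fold lower, beside the 0.715% and 0.371% of all genes. Of the 9, 4 were higher and 3 lower in both tables. Their median difference was −0.04 in replicate 1 and 0.43 in replicate 2. Dtx1, a ubiquitin ligase of the Notch pathway, was the one higher: 0 and 0.05 FPKM in con, 2.86 and 1.02 in ICN, and 15.51 and 8.71 in CTdel. CTdel exceeded ICN 5.42-fold and 8.54-fold (2.18, SE 0.313, limma adjusted p = 0.326) although Notch1 itself was lower in CTdel. Ptcra, which encodes the alpha chain of the pre-T-cell receptor, was the one lower. It had 1.47 and 1.37 FPKM in con, 4.12 and 4.95 in ICN, and 1.52 and 0.98 in CTdel (−1.31, limma adjusted p = 0.372). Neither gene's ICN and CTdel libraries overlapped.

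Myc, the growth regulator that Notch switches on in T-cell leukaemia, was lower in both ICN libraries than elsewhere. It had 197.82 and 194.24 FPKM in con, 112.90 and 89.86 in ICN, and 172.55 and 192.04 in CTdel (0.85, limma adjusted p = 0.568). Il2ra, the interleukin-2 receptor alpha chain, had 109.64 and 28.83 FPKM in con, 373.38 and 273.19 in ICN, and 412.51 and 762.20 in CTdel (0.81, limma adjusted p = 0.756). Cdkn1a, a cell cycle inhibitor, had 188.40 and 131.14 in con, 253.87 and 820.37 in ICN, and 186.86 and 105.85 in CTdel (−1.69, limma adjusted p = 0.665). The CTdel and ICN libraries did not overlap in Myc, Il2ra or Cdkn1a. Over all genes, CTdel lay wholly above ICN in 15.6% and wholly below in 25.0%.
Bcl2, a survival gene, had 26.12 and 13.37 FPKM in ICN and 16.07 and 11.37 in CTdel, with overlap (−0.44, limma adjusted p = 0.731). Igf1r, a growth factor receptor, had 12.71 and 10.35 in ICN and 16.23 and 19.88 in CTdel (0.60, limma adjusted p = 0.707). The transcription factor genes Hes6 and Tcf7 differed by 0.15 each. Leaving out 1 library turned the direction of Il2ra (−0.22 without CTdel replicate 2), Hes6 (−0.12 without ICN replicate 2) and Tcf7 (−0.03 without ICN replicate 2). Hes1, Hes5 and Nrarp, which are among the best known targets, did not reach the level tested.

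The receptors, ligands and processing enzymes of the pathway gave 16 tested genes, of which 0 passed and 0 were 2-fold either way in both tables, with medians of −0.05 and 0.06. Lfng, a sugar transferase that modifies Notch, had 31.98 and 34.39 FPKM in con, 15.93 and 14.08 in ICN, and 18.17 and 42.00 in CTdel (0.85, limma adjusted p = 0.705). The 24 genes of the RBPJ complex and Notch turnover also had 0 calls and 0 genes 2-fold either way, with medians of −0.09 and −0.19. Of these 24, 15 were lower and 4 higher in both tables, beside 38.3% and 24.0% of all genes. Numb, an inhibitor of Notch, had 9.65 and 20.55 FPKM in ICN and 7.80 and 9.04 in CTdel (−0.69, limma adjusted p = 0.705). The coactivator Maml1 had 6.27 and 10.48 against 4.90 and 6.10.

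Myeloid genes lay higher in CTdel in both tables for 12 of 21 tested members and lower for 3, beside 24.0% and 38.3% of all genes. Their medians were 0.12 and 0.58. In this list 0 passed and 2 were 2-fold higher in both tables, beside 0.715% of all genes. Their FPKM summed to 809 and 546 in ICN and to 1185 and 1077 in CTdel. Tyrobp, a signalling adaptor of myeloid and natural killer cells, had 52.25 and 20.57 FPKM in con, 123.95 and 40.67 in ICN, and 247.42 and 117.20 in CTdel (1.25, limma adjusted p = 0.351). Spi1, which encodes the myeloid factor PU.1, had 39.14 and 47.67 in con, 154.71 and 138.64 in ICN, and 280.94 and 463.15 in CTdel (1.29, limma adjusted p = 0.386). Spi1 did not overlap between the forms, whereas for Tyrobp the higher ICN library exceeded the lower CTdel library. Over all genes, CTdel lay wholly above ICN in 15.6%. The 7 tested osteoclast and dendritic genes had medians of 0.67 and 0.76, and 2 were 2-fold higher, with sums of 61.9 and 84.0 FPKM in ICN and 138 and 95.4 in CTdel. Of the 7, 4 were higher and 1 lower in both tables. Of the 20 such genes in both tables, 11 stayed under 1 FPKM in every library. Mmp9, a secreted protease, had 1.02 and 0.78 FPKM in ICN and 4.29 and 5.70 in CTdel (1.65, limma adjusted p = 0.326). Itgb3, the 1 member lower in both tables, had 11.08 and 18.42 FPKM in ICN and 7.20 and 6.31 in CTdel (−0.98, limma adjusted p = 0.628). Of 26 myeloid genes in both tables, 5 stayed under 1 FPKM in every library and 0 were at 0 in all 6. The part of other cells in these values was not tested.

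Other cell type lists had 0 genes past the test. Of 5 tested natural killer and cytotoxic genes, 1 (Cd244) was 2-fold higher, beside 0.715% of all genes, and the medians were 0.02 and −0.85. Gzmb, the protease granzyme B, had 34.20 and 28.93 FPKM in con, 556.41 and 1904.83 in ICN, and 351.84 and 892.14 in CTdel. Of 22 T-lineage genes in both tables, 5 were tested and 14 stayed under 1 FPKM in every library, the receptor chain genes Cd3e and Cd3g among them. The summed level of the tested T-lineage genes was 17.0 and 18.8 FPKM in ICN and 12.9 and 11.6 in CTdel. Of these 5, 1 was higher and 2 lower in both tables. The higher gene, Cd7, had 0.43 and 0.16 FPKM in ICN and 1.53 and 3.32 in CTdel (1.36, limma adjusted p = 0.568). B-lineage genes were higher in both tables for 4 of 10 tested and lower for 0, beside 24.0% and 38.3% of all genes. Their medians were 0.01 and 0.45. Lyn, a kinase of B and myeloid cells, had 86.86 and 43.54 FPKM in ICN and 164.46 and 144.77 in CTdel (1.31, limma adjusted p = 0.377). Mast cell and basophil genes (6 tested), erythroid and megakaryocyte genes (14) and fibroblast and endothelial genes (3) had 0 members 2-fold either way. Their medians were 0.20 and −0.07, −0.28 and 0.13, and −0.005 and 0.13 in the respective tables.

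Homing and adhesion receptors had 1 of 19 members 2-fold higher (Itgal) and medians of 0.07 and 0.49, with 10 higher and 4 lower in both tables. Of all genes, 0.715% were 2-fold higher, and 24.0% were higher and 38.3% lower in both tables. Cxcr4, the chemokine receptor that holds leukocytes in the marrow, had 35.43 and 24.84 FPKM in ICN and 83.22 and 38.95 in CTdel (0.92, limma adjusted p = 0.663). Chemokines and cytokines had 2 of 20 members 2-fold higher and medians of 0.38 and −0.07. Ccl17, a chemokine of activated dendritic cells, had 0.21 and 0 FPKM in con, 9.25 and 0.21 in ICN, and 145.64 and 7.28 in CTdel (3.31, limma adjusted p = 0.576). Ltb, a lymphotoxin subunit, had 157.49 and 34.45 in ICN and 315.23 and 186.54 in CTdel (1.70, limma adjusted p = 0.528). The replicates of each form lay far apart in Ccl17, with replicate 1 above replicate 2.

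NF-kB targets split between the tables. Of 23 tested, 10 were higher and 1 lower in both tables, beside 24.0% and 38.3% of all genes, and 2 were 2-fold higher. But the list had a median of 0.45 in the table of replicate 1 and of −0.60 in that of replicate 2. Nfkbie, an NF-kB inhibitor that NF-kB itself switches on, had 21.35 and 15.88 FPKM in ICN and 42.60 and 26.05 in CTdel (0.82, limma adjusted p = 0.583). Nfkbiz, the 1 member lower in both tables, had 14.37 and 12.08 in ICN and 12.44 and 2.36 in CTdel (−1.08, limma adjusted p = 0.688). Medians of immediate-early and MAP kinase phosphatase genes split the same way, at 0.25 and −0.88 over 22 genes. Of these 22, 8 were higher and 9 lower in both tables, and 2 were 2-fold higher. Nr4a1, an early-response nuclear receptor, had 0.04 and 0.02 FPKM in con, 1.61 and 0.67 in ICN, and 7.64 and 4.37 in CTdel (1.71, limma adjusted p = 0.326). Dusp1, a MAP kinase phosphatase, had 61.62 and 29.34 in ICN and 118.84 and 64.86 in CTdel (1.03, limma adjusted p = 0.386). Nr4a1 and Dusp1 did not overlap between the forms, beside 15.6% of all genes with CTdel wholly above ICN. In the BCL2 family 2 of 13 genes, Bcl2a1a and Bcl2a1d, were 2-fold higher, beside 0.715% of all genes. They are near-identical copies between which reads can be misassigned, so their values are uncertain. Bcl2a1d is also 1 of the 2 NF-kB targets counted as 2-fold higher. Of the 13, 5 were higher and 4 lower in both tables. Bcl2l11, among those lower, had 10.56 and 34.77 FPKM in ICN and 8.37 and 6.41 in CTdel (−1.29, limma adjusted p = 0.678).

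Interferon response genes were lower in CTdel in both tables for 29 of 37 and higher for 0, beside 38.3% and 24.0% of all genes. None passed, 2 were 2-fold lower in both tables, beside 0.371% of all genes, and the medians were −0.18 and −1.40. Their FPKM summed to 2493 and 7304 in ICN and 2314 and 2673 in CTdel, so ICN replicate 2 stood apart from the other 3 libraries, and that library also had the highest Notch1. Ifit3, which limits viral translation, had 0.72 and 0.36 FPKM in con, 41.49 and 189.63 in ICN, and 19.32 and 6.93 in CTdel (−2.83, limma adjusted p = 0.611). Mx2, which RefSeq lists as a transcribed pseudogene in the mouse, had 29.34 and 372.66 in ICN and 12.36 in both CTdel libraries (−2.99, limma adjusted p = 0.658). Within replicate 1, where that library has no part, the list's median was −0.18 against −0.07 over all genes.

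Of 18 p53 response genes, 13 were lower and 1 was higher in both tables, beside 38.3% and 24.0% of all genes. None passed, 1 was 2-fold lower in both, beside 0.371% of all genes, and the medians were −0.39 and −1.64. Their FPKM summed to 1146 and 2825 in ICN and 917 and 707 in CTdel, so ICN replicate 2 again stood apart. Mdm2, the ubiquitin ligase that degrades p53, had 55.50 and 32.89 FPKM in con, 88.17 and 223.78 in ICN, and 57.49 and 36.73 in CTdel (−1.59, limma adjusted p = 0.663). Trp53inp1, a stress protein induced by p53, had 15.75 and 7.33 in con, 32.96 and 112.83 in ICN, and 14.76 and 10.54 in CTdel (−2.20, limma adjusted p = 0.633). In both genes CTdel lay close to con. Without ICN replicate 2 the differences were −0.58 for Mdm2 and −0.97 for Trp53inp1. Histone cluster genes had 25 of 44 lower and 2 higher in both tables, with 5 of the 44 2-fold lower and medians of −0.23 and −1.24. Their FPKM summed to 201 and 897 in con, 383 and 1286 in ICN, and 401 and 1026 in CTdel. The sum was thus not lower in CTdel in replicate 1. Hist1h4k had 3.25 and 7.44 FPKM in ICN and 0.87 and 0.79 in CTdel (−1.71, limma adjusted p = 0.357).

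Of 30 cell cycle genes 15 were higher and 0 lower in both tables, beside 24.0% and 38.3% of all genes. But the medians were −0.03 in replicate 1 and 0.80 in replicate 2, and 0 passed. Aurka, a mitotic kinase, had 42.76 and 56.01 FPKM in con, 30.20 and 44.88 in ICN, and 45.23 and 70.89 in CTdel (0.61, limma adjusted p = 0.663). Cdc20, an activator of the anaphase-promoting complex, had 52.47 and 72.34 in ICN and 71.04 and 116.92 in CTdel. The forms overlapped in Cdc20 and lay next to each other without overlap in Aurka. Over all genes, CTdel lay wholly above ICN in 15.6%. Cytosolic ribosomal proteins were higher in both tables for 20 of 28 and lower for 0, with medians of 0.24 and 0.07. Glycolysis and hypoxia genes were higher in both for 15 of 22 and lower for 1 (medians 0.07 and 0.45). Cholesterol synthesis genes had medians of −0.07 and 0.70, and 9 of 23 were higher in both. Ribosome biogenesis genes had medians of −0.03 and 0.32. Oxidative phosphorylation genes (28), heat shock proteins (20), amino acid stress genes (23) and lysosome and iron genes (23) had 0 members 2-fold either way. In none of these lists did a member pass. Small nuclear and small nucleolar RNA genes had 6 of 93 members 2-fold higher and 5 lower, beside 0.715% and 0.371% of all genes. Their medians were −0.05 and 0.37.

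Genes of the interleukin-3 receptor, JAK and STAT5 had medians of 0.02 and −0.09 over 18 tested members. Id1, an inhibitor of differentiation factors, had 85.28 and 176.01 FPKM in con, 38.76 and 20.41 in ICN, and 77.53 and 156.23 in CTdel (1.93, limma adjusted p = 0.575). ICN was lowest in both tables and CTdel was near con. Jak2, the kinase of the receptor, had 48.91 and 34.06 in ICN and 70.30 and 77.28 in CTdel (0.84, limma adjusted p = 0.633). Csf2rb2, a beta chain of the receptor, had 245.24 and 218.80 in ICN and 146.05 and 114.06 in CTdel (−0.84, limma adjusted p = 0.658). It is a close copy of Csf2rb, so reads may be split between them.

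**Figure D4:**
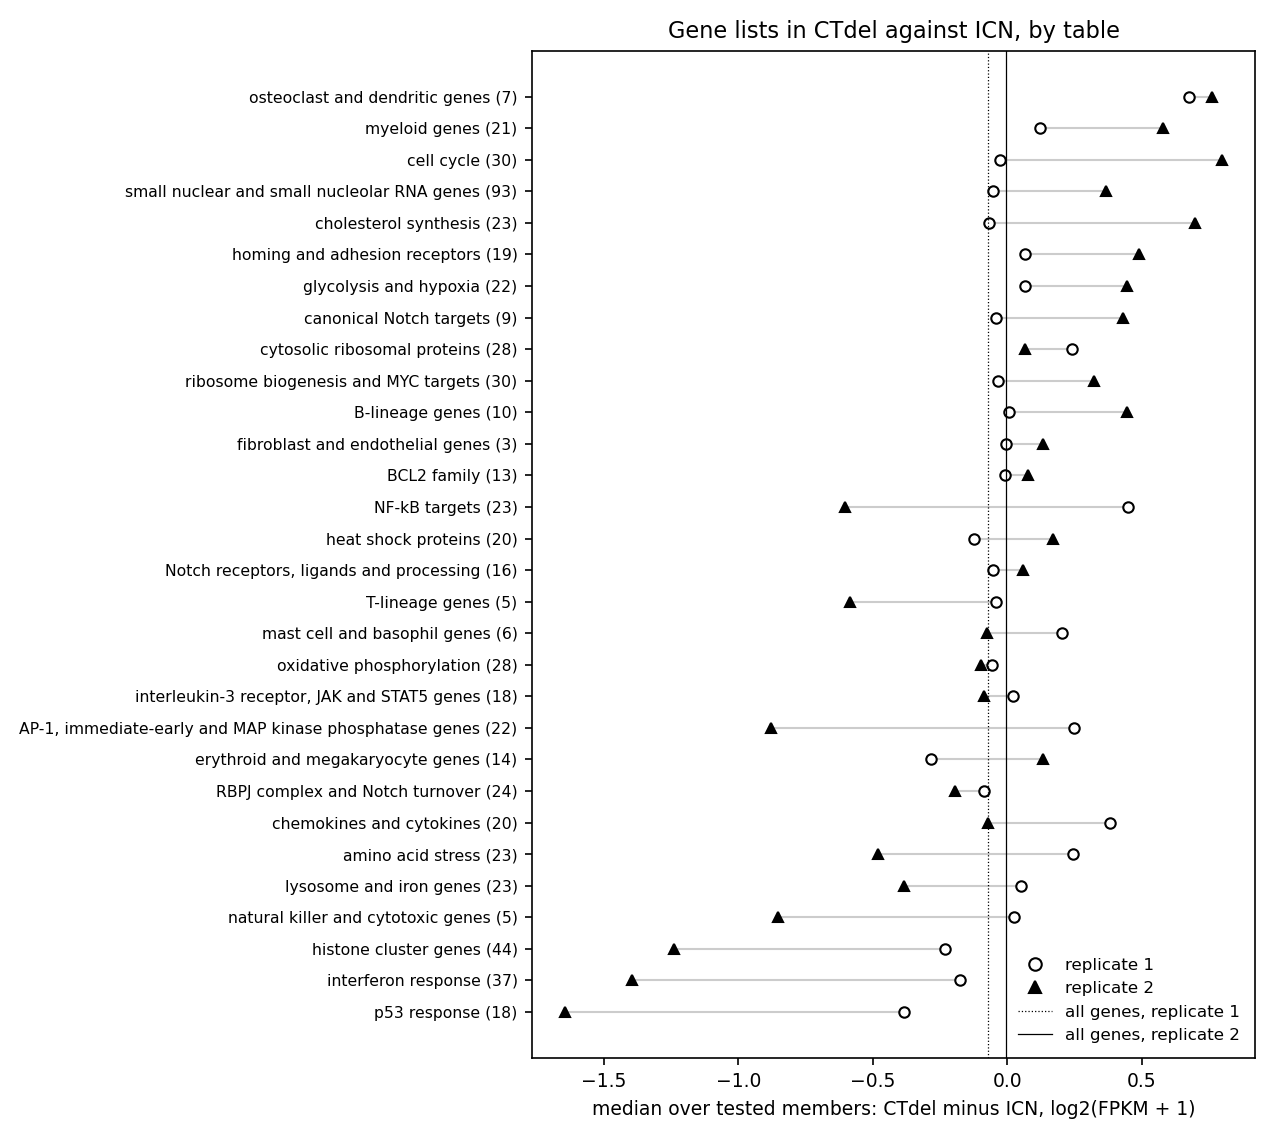
Median difference in log2(FPKM + 1), CTdel minus ICN, of the tested members of each gene list in replicate 1 and replicate 2, with vertical lines at the medians over all genes (−0.07 dotted, replicate 1, and −0.003 solid, replicate 2). Interferon, p53 and histone lists lie low mainly in replicate 2 (−1.40, −1.64 and −1.24), and the osteoclast and dendritic list lies at 0.67 and 0.76.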

How the data were processed

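RNA of 6 BaF3 libraries was analysed, 2 each of con, ICN and CTdel. Per the labels' protocols, total RNA went into an MGIEasy mRNA library kit. The authors deposited FPKM per gene, with 1 table per replicate, per the file headers. The submitters' processing notes name HISAT2, Bowtie2, RSEM and the builds hg19 and mm10, without versions or roles. The tables list 17877 and 17868 genes, and 26 symbols that had turned into dates were restored from their Gene IDs. Of the 16799 IDs in both, 16758 matched RefSeq for GRCm38.p6, the source of coordinates and promoters.

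Because FPKM are not counts, log2(FPKM + 1) was tested with limma 3.58.1 in R 4.3.3 (intensity trend, 2-sided, Benjamini-Hochberg, adjusted p under 0.05) over 11050 genes. The fit over all 6 libraries had terms for group and table, with 2 residual degrees of freedom and a median prior of 3.83. A fold change on this scale understates that of low genes.

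Named genes were Notch1; the 10 largest called in each direction with a mean FPKM of at least 1 over the 4 ICN and CTdel libraries, filled up to 10 with those of smallest p; each tested canonical target; and up to 3 members of smallest p per list, all with the same sign in both tables except the targets. Among these, 1 called gene is not reported here. Some list genes, such as Il3ra, and those under other observations were chosen after their values were seen. The comparison, lists and motifs were chosen with earlier results of these data known. Alternatives covered the table term, pseudocount, filter, scaling, trend, libraries fitted, threshold and each library left out.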

Additional observations from a re-analysis of the deposited data

How the results depend on the processing

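The count of 2 called genes became 0 with a pseudocount of 0.1 and with no filter on low values, and 1 with a minimum of 5 FPKM, and the lower calls gave the same values. With the ICN and CTdel libraries alone 1 gene, Treml4, was called higher. Leaving out a library gave 2 to 891 calls in all, 0 to 346 higher and 2 to 545 lower, the extremes upward being without ICN replicate 1. A library left alone in its group by this is taken to scatter as the remaining groups do. The Notch1 difference ranged from −4.65 to −1.58, and was −4.52 without ICN replicate 1 and −4.65 without CTdel replicate 1, where it passed. Genes 2-fold lower in both tables numbered 98 with a pseudocount of 0.1 and 22 among protein-coding genes alone, the last chosen after seeing the data. Those 2-fold higher numbered 109, and 64 for protein-coding genes. Quantile normalization, a common FPKM sum, no intensity trend and a threshold of 0.1 left 2 genes called. Leaving out 1 library turned the sign of Il2ra, Hes6, Tcf7, Acta2 and Wdr12, none of them called. Apart from the settings that change which genes or libraries enter, the cause was not tested.

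Deviations from group means correlated between libraries of the same replicate number at −0.0988 for con with ICN, 0.326 for con with CTdel and 0.236 for ICN with CTdel. Replicate numbers thus went with a weak shared deviation in the pairs with CTdel, and not for con with ICN. Without the replicate block 2 genes were called and Notch1 was −3.11 (limma adjusted p = 0.582). Read depth is unknown, so small values such as those of microRNA genes carry no interval, and no library could be tested as an outlier in groups of 2.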

Other observations

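Outside the lists, several immune and membrane genes were 2-fold higher in CTdel in both tables, and these were picked after their values were seen. Cd82, a tetraspanin of leukocyte surfaces, had 38.32 and 14.90 FPKM in con, 78.34 and 66.29 in ICN, and 258.27 and 238.02 in CTdel (1.77, limma adjusted p = 0.357). Anxa6, a calcium-dependent membrane-binding annexin, had 65.25 and 41.51 in ICN and 166.71 and 124.66 in CTdel (1.45, limma adjusted p = 0.326). Hsd11b2, which inactivates glucocorticoids, had 0.14 and 0.40 in con, 12.20 and 1.52 in ICN, and 51.87 and 63.59 in CTdel (3.34, limma adjusted p = 0.386). The CTdel libraries lay above the ICN libraries without overlap in all 3 genes, which their choice by these same libraries largely builds in. Over all genes, CTdel lay wholly above ICN in 15.6%. Hbegf, a growth factor of the EGF family, had 13.55 and 3.03 in ICN and 45.83 and 26.37 in CTdel, and Treml4, a myeloid receptor, had 7.26 and 0.28 in ICN and 67.92 and 17.34 in CTdel (3.45, limma adjusted p = 0.351).

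Among genes 2-fold lower in CTdel, Churc1, a zinc finger gene, had 57.78 and 58.48 FPKM in con, 147.14 and 151.26 in ICN, and 69.17 and 38.49 in CTdel (−1.51, limma adjusted p = 0.357). Rhag, an erythroid membrane protein, was lower in CTdel than in either other group, with 12.77 and 12.72 FPKM against 28.24 and 38.60 in ICN and 56.18 and 30.61 in con (−1.31, limma adjusted p = 0.568). P2rx7, an ATP-gated channel, had 11.68 and 75.39 in ICN and 4.44 and 3.40 in CTdel. In 31 genes the tables gave 2-fold differences of opposite sign, 16 higher in replicate 1 and 15 higher in replicate 2, and 7 of the 31 were protein coding. Ccl4, a chemokine, had 25.11 and 6.40 FPKM in ICN and 71.50 and 2.57 in CTdel, and Acod1, the enzyme that makes itaconate, had 24.76 and 9.26 against 51.72 and 3.36.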
